A study of Arabidopsis thaliana with 8 samples.

Results

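Dark-grown Arabidopsis thaliana seedlings that lack the red-light receptors phyA and phyB (phyAB) were compared, after 1 h of red light, with wild type given the same light (WT red). The 2 phyAB and 2 WT red libraries are 4 of the 8 RNA sequencing libraries of the series and were chosen by genotype and light, and all genes with enough reads were compared. All seedlings were of the Col-0 background, spent 3 days at 4 °C, 12 h in white light and 5 days in darkness on medium with 1% sucrose, and the red light was 50 µmol per square metre per second. Wild type left in darkness (WT dark) and a phyB single mutant given the same red light (phyB), each with 2 libraries, serve as references. The labels name no alleles. Mutant seedlings kept in darkness were not analysed here, so a difference between phyAB and WT red may have been there before the light. Whole seedlings were sampled, so that fewer cells of a type and less RNA per cell cannot be told apart.

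Phytochromes sense red and far-red light. After light absorption they enter the nucleus, where they act against the PIF factors, bHLH proteins that sustain growth in darkness, and against the COP1/SPA ubiquitin ligase, which removes light-promoting factors such as HY5. phyA is abundant in darkness and is lost quickly in light, while phyB is light-stable and the main receptor of continued red light. The comparison asks which transcripts differ between phyAB and wild type after 1 h of red light. It cannot tell whether a difference arose in that hour.

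The phyAB libraries held 21699222 and 16619502 reads and the WT red libraries 19760675 and 16326741. For each gene described as higher or lower than WT red below, both phyAB libraries lay outside the range of the WT red libraries. Levels are given in CPM, reads per 1000000 reads of the scaled library, for library 1 and library 2 of a group. A ± value beside a log2 change is an approximate SE from edgeR's quasi-likelihood test. It is the size of the change divided by the square root of the F statistic. For genes with few reads, such as CRU3, it is smaller than counting error alone. Adjusted p-values are those of Benjamini and Hochberg over 20716 tested genes, and a gene was called where this p was below 0.05. The labels do not say whether the libraries of a group came from separate batches of seedlings. They lay close together, with a common biological coefficient of variation of 1.59%. The p-values therefore rest on a spread that may be no more than technical, and small differences passed. Between phyAB and WT red 45% of the genes were called (4624 higher and 4706 lower), 22.3% higher and 22.7% lower in phyAB, while 4.04% were called and at least 2-fold higher and 2.95% at least 2-fold lower. The median log2 change of all tested genes was 0.003. These shares are the background for the counts of each gene list below. The lists were drawn up with earlier results of these data known, so their counts are a description. Against phyB 50.2% of the genes were called, 26.1% higher and 24.1% lower in phyAB. Against WT dark 48.2% were called, 27.2% higher and 20.9% lower. The comparisons share the phyAB libraries.

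**Figure D1:**
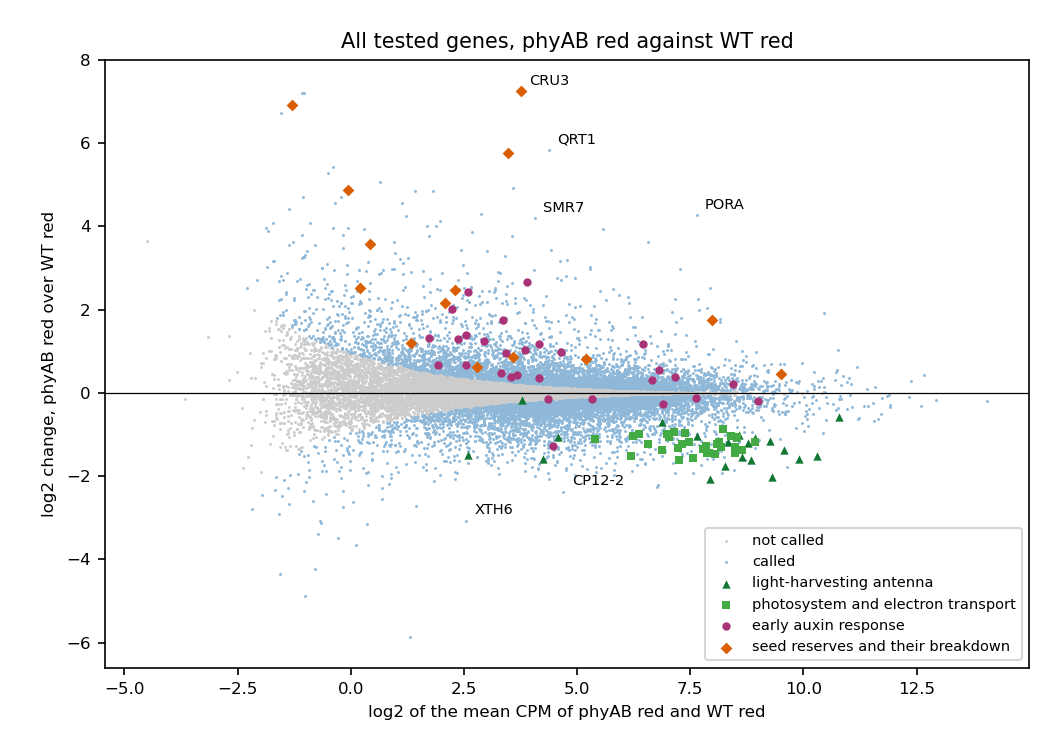
Each point is 1 of 20716 tested genes, with the log2 of its mean CPM in phyAB and WT red on the x axis and the log2 change of phyAB over WT red on the y axis. Antenna and photosystem genes lie below 0, most early auxin genes above it, and all tested seed reserve genes above it. CRU3, at 7.25, is one of 5 seed genes that passed the filter on low counts only through the phyAB libraries.

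Transcripts of both mutated receptor genes were lower in phyAB but were still present. PHYA lay at 834 and 828 CPM in WT dark, 463 and 471 in WT red, 703 and 703 in phyB and 124 and 123 in phyAB, and phyAB was lower than WT red (log2 change −1.92 ± 0.03, adjusted p = 7.29e-101). PHYB lay at 80.7 and 81.4 CPM in WT dark, 96 and 95.2 in WT red, 62.3 and 64.3 in phyB and 52.9 and 50.4 in phyAB (log2 change −0.88 ± 0.05, adjusted p = 1.2e-37 against WT red). The ranges of phyAB and WT red did not overlap for either gene, and these levels alone cannot show which allele each line carries. PHYC, a light-stable receptor of the same family, was slightly lower at 46.8 and 46.8 CPM in WT red and 40.8 and 38.5 in phyAB (log2 change −0.23 ± 0.06, adjusted p = 0.00049). PHYD (log2 change 0.15 ± 0.12, adjusted p = 0.307) and PHYE (log2 change −0.18 ± 0.09, adjusted p = 0.112) were not called.

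Among 8 genes of phyA nuclear import and signalling, 3 were higher and 3 lower. FHY1 and FHL encode the pair of proteins that carry phyA into the nucleus. FHY1 lay at 40.2 and 38 CPM in WT dark, 18.9 and 17.9 in WT red and 29.3 and 28.9 in phyAB (log2 change 0.66 ± 0.08, adjusted p = 2.21e-12). FHL lay at 9.82 and 7.52 CPM in WT dark, 3.16 and 3.01 in WT red and 6.73 and 7.6 in phyAB (log2 change 1.2 ± 0.18, adjusted p = 4.87e-09). Both were higher in phyAB than in WT red. Their transcriptional activators moved the other way: FHY3 lay at 86.2 and 86.8 CPM in WT red and 73.7 and 74.5 in phyAB (log2 change −0.22 ± 0.04, adjusted p = 5.85e-06). FAR1 lay at 30.3 and 28.6 CPM in WT red and 23.4 and 25.3 in phyAB (log2 change −0.28 ± 0.08, adjusted p = 0.00113). The call of FAR1 was lost without phyAB replicate 1 (adjusted p = 0.0575).

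Transcription factors that promote light development were mostly lower. Of 12 tested genes 9 were lower, 4 of them at least 2-fold, and 2 higher. HY5, a bZIP factor that activates many light-induced genes, lay at 25.2 and 22.5 CPM in WT dark, 39.7 and 43.5 in WT red, 52.5 and 46.9 in phyB and 19.1 and 19.9 in phyAB (log2 change −1.09 ± 0.07, adjusted p = 6.08e-28), which put phyAB below WT dark as well (log2 change −0.30 ± 0.08, adjusted p = 0.00115). Its homologue HYH lay at 1.65 and 1.77 CPM in WT dark, 17.7 and 18.6 in WT red and 7.95 and 6.83 in phyAB (log2 change −1.28 ± 0.12, adjusted p = 4.03e-19) and stood above WT dark in phyAB (log2 change 2.12 ± 0.19, adjusted p = 4.1e-20). CGA1, a GATA factor of chloroplast development, was lower at 6.99 and 6.83 CPM in WT red and 2.26 and 2.12 in phyAB (log2 change −1.65 ± 0.21, adjusted p = 5.96e-12). The 2 higher genes were BBX21 and BBX23. BBX23, a B-box gene, lay at 5.61 and 7.52 CPM in WT dark, 0.155 and 0.188 in WT red, 0.0624 and 0.045 in phyB and 4.7 and 5.66 in phyAB (log2 change 4.86 ± 0.38, adjusted p = 2.73e-23), and no difference from WT dark passed the test (log2 change −0.35, adjusted p = 0.0999). BBX23 had 6 reads over both WT red libraries and 200 over both phyAB libraries, a ratio of 31.4 with a 95% counting interval of 14.2 to 86.6.

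Genes of the opposite role, repressors of light signalling, were also lower. Of 15 tested genes 12 were lower, 9 at least 2-fold, and 1 was higher, with a median log2 change of −1.12. BBX25, a B-box protein that limits HY5 activity, lay at 1.3 and 0.644 CPM in WT dark, 31.8 and 32.9 in WT red, 34.3 and 34 in phyB and 7.41 and 9.78 in phyAB (log2 change −1.93 ± 0.10, adjusted p = 1.92e-38). BBX30, a microprotein of the same family, lay at 5.39 and 5.89 CPM in WT red and 1.67 and 1.53 in phyAB (log2 change −1.8 ± 0.23, adjusted p = 3.12e-11). BBX31, its close relative, lay at 5.54 and 7.46 CPM in WT red and 2.08 and 2.06 in phyAB (log2 change −1.63 ± 0.21, adjusted p = 1.46e-11). SPA1, a partner of COP1 named here after its values were seen, lay at 52.4 and 52.9 CPM in WT dark, 205 and 206 in WT red and 79.6 and 80.5 in phyAB (log2 change −1.36 ± 0.04, adjusted p = 6.08e-71). The exception was BBX28, at 19.2 and 18.2 CPM in WT red and 24.8 and 23.4 in phyAB (log2 change 0.37 ± 0.08, adjusted p = 7.73e-05). Against WT dark, 8 of these 15 genes were higher in phyAB and 1 lower.

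The PIF genes themselves split. Of 7 genes 5 were lower and 2 higher. PIF4 and PIF5 are growth-promoting members of the family. PIF4 lay at 33.1 and 34.6 CPM in WT dark, 83.2 and 84.2 in WT red and 37.7 and 36.6 in phyAB (log2 change −1.17 ± 0.05, adjusted p = 3.14e-44). PIF5 lay at 27.2 and 28.6 CPM in WT dark, 69.6 and 70.8 in WT red and 30.3 and 32.6 in phyAB (log2 change −1.16 ± 0.06, adjusted p = 1.44e-39). PIF7 was lower too, at 12.9 and 11.7 CPM in WT red and 4.34 and 3.65 in phyAB (log2 change −1.61 ± 0.15, adjusted p = 5.38e-18). PIF3, the founding member of the family, was higher, at 39.2 and 41.2 CPM in WT dark, 32 and 32.3 in WT red, 40.2 and 39.7 in phyB and 60.7 and 64.9 in phyAB (log2 change 0.96 ± 0.06, adjusted p = 2.68e-31), and exceeded WT dark (log2 change 0.64 ± 0.06, adjusted p = 4.45e-20). In all 3 genes that were lower by at least 2-fold, the phyAB libraries lay below both WT red libraries.

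Known targets of the PIFs and of shade were higher. Of 16 genes 14 were higher, 5 at least 2-fold, and 1 was lower, with a median log2 change of 0.75. PIL1, a bHLH gene that is induced by shade, lay at 25.4 and 25.5 CPM in WT dark, 2.23 and 2.88 in WT red, 15.9 and 16.7 in phyB and 15.9 and 16.9 in phyAB (log2 change 2.69 ± 0.15, adjusted p = 2.22e-36). The phyB and phyAB libraries overlapped for this gene (log2 change 0.00, adjusted p = 0.999 between them). XTH15, a cell wall xyloglucan enzyme, lay at 578 and 581 CPM in WT dark, 49.1 and 49.8 in WT red, 160.1 and 154 in phyB and 236 and 235 in phyAB (log2 change 2.25 ± 0.04, adjusted p = 7.49e-93). ST2A, a sulfotransferase that inactivates jasmonates, lay at 83.5 and 80.2 CPM in WT dark, 16.4 and 17.7 in WT red, 39.7 and 39.97 in phyB and 63.1 and 61.6 in phyAB (log2 change 1.88 ± 0.07, adjusted p = 3.65e-55). For both, phyAB stood above phyB and below WT dark. The gene that was lower was HFR1, a bHLH repressor of shade responses, at 183 and 183 CPM in WT red and 142 and 136 in phyAB (log2 change −0.39 ± 0.03, adjusted p = 3.14e-22). Against phyB 4 of these genes were higher, 6 lower and 6 not called. Against WT dark 2 were higher and 11 lower.

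Early auxin genes were higher than in WT red and lower than in phyB. Of 29 genes 23 were higher than in WT red, 11 at least 2-fold, and 5 lower, with a median log2 change of 0.66. Against phyB 5 were higher and 20 lower (median −0.57), and against WT dark 5 and 18 (median −0.31). The summed level of the list lay at 2294 and 2302 CPM in WT dark, 1781 and 1783 in WT red, 2634 and 2672 in phyB and 2007 and 2001 in phyAB, with no overlap between groups. GH3.3, an enzyme that conjugates auxin to amino acids, lay at 21.7 and 22.8 CPM in WT dark, 3.88 and 4.26 in WT red, 9.79 and 9.85 in phyB and 26.8 and 25 in phyAB (log2 change 2.68 ± 0.12, adjusted p = 3.27e-44). In contrast to most of the list GH3.3 was higher than in phyB (log2 change 1.4 ± 0.10, adjusted p = 5.52e-27). IAA29, an Aux/IAA repressor, lay at 10.2 and 10.5 CPM in WT dark, 1.81 and 2.01 in WT red, 7.67 and 8.23 in phyB and 10.2 and 10.1 in phyAB (log2 change 2.41 ± 0.18, adjusted p = 1.01e-24). GH3.1, of the same family as GH3.3, lay at 9.57 and 7.63 CPM in WT dark, 1.86 and 1.88 in WT red, 8.04 and 7.91 in phyB and 8.49 and 6.6 in phyAB (log2 change 2.02 ± 0.20, adjusted p = 3.27e-17). SAUR14, a small auxin-up RNA gene, was the largest exception at 8.37 and 8.38 CPM in WT dark, 31.6 and 30.9 in WT red, 44 and 42.2 in phyB and 12 and 14.3 in phyAB (log2 change −1.27 ± 0.09, adjusted p = 1.08e-27). Several SAUR genes are near-identical copies whose reads the counting may split.

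The bases before GH3.3 are shown because that gene changed most among the auxin genes named by the rule. The 300 bases directly upstream of its annotated start (chr2:9866563-9866862, minus strand, RefSeq assembly TAIR10.1) hold, in capitals, GCCAC (SORLIP1, at −193 on the opposite strand and at −37), CACATG (the PBE-box, a PIF binding element, at −172) and TGTCTC (the auxin response element, at −116). Positions give the first base of a match on either strand, counted back from the start.
GH3.3: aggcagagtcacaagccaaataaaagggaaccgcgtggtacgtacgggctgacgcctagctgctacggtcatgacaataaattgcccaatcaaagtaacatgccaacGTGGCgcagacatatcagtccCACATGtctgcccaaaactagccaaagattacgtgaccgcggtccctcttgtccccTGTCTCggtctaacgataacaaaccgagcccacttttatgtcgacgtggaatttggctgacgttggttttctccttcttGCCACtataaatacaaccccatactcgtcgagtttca

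In windows of this length CACATG occurred before 13 of 29 early auxin genes (44.8%) and 7 of 16 PIF and shade targets (43.8%), against 13.1% of all 26708 promoters. It was found before 19.4% of the genes called at least 2-fold higher and 15.4% of those at least 2-fold lower. Lists that did not rise held it as often, with 5 of 11 brassinosteroid genes (45.5%) and 4 of 7 stomatal lineage markers (57.1%). TGTCTC stood before 11 of 29 auxin genes (37.9%) and 12.9% of all promoters. A match is a description of the letters and not a site in use, and these shares were not tested.

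Genes of cell wall loosening and growth-related bHLH genes were mostly higher. Of 23 tested genes 15 were higher than in WT red, 9 at least 2-fold, and 3 lower. XTH19 lay at 214 and 221 CPM in WT dark, 69.1 and 72.7 in WT red, 81.3 and 82.1 in phyB and 338 and 339 in phyAB (log2 change 2.26 ± 0.03, adjusted p = 6.85e-100). EXPA11, an expansin gene, lay at 107 and 118 CPM in WT dark, 39.3 and 36.7 in WT red, 45.5 and 44.7 in phyB and 133 and 138 in phyAB (log2 change 1.83 ± 0.05, adjusted p = 2.05e-70). In both the phyAB libraries were above those of the other 3 groups. PRE5, a growth-promoting HLH gene, lay at 1.81 and 1.13 CPM in WT red and 9.58 and 7.66 in phyAB (log2 change 2.53 ± 0.21, adjusted p = 9.46e-22). EXPA1, also an expansin, went the other way at 34.7 and 37 CPM in WT dark, 214 and 209 in WT red, 259.9 and 264 in phyB and 65.1 and 67.2 in phyAB (log2 change −1.68 ± 0.04, adjusted p = 9.52e-80). So did HBI1, a bHLH growth factor, at 76.6 and 73.4 CPM in WT red and 53.5 and 49.1 in phyAB (log2 change −0.54 ± 0.05, adjusted p = 1.13e-18). Against phyB 10 of the list were higher and 11 lower.

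**Figure D2:**
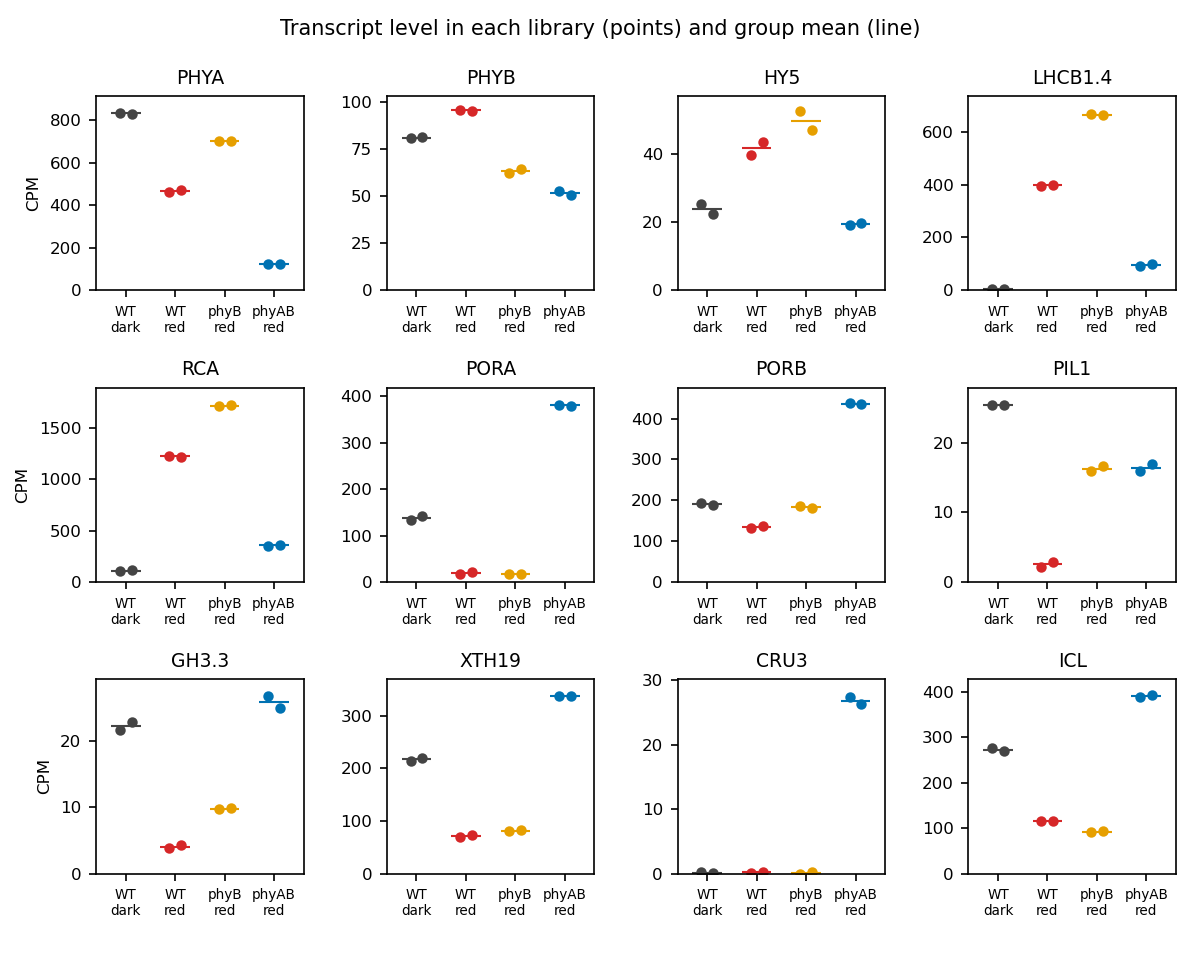
Transcript level in CPM (y axis, from 0) of 12 genes in each of the 8 libraries (points), with the mean of each group of 2 as a line. PORA, PORB, GH3.3, XTH19, CRU3 and ICL stand highest in phyAB, while LHCB1.4 and RCA in phyAB lie between WT dark and WT red.

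Genes of the photosynthetic apparatus were lower than in WT red and, with few exceptions, higher than in WT dark. Of 21 light-harvesting antenna genes 20 were lower than in WT red, 18 at least 2-fold (median log2 change −1.2). So were all 30 photosystem and electron transport genes (25 at least 2-fold, median −1.23) and all 20 genes of carbon fixation and photorespiration (12 at least 2-fold, median −1.25). Against WT dark 20 antenna, 30 photosystem and 19 carbon fixation genes were higher in phyAB, and 1, CP12-1, was lower. Against phyB all members of these lists were lower. The summed level of the antenna genes was 2013 and 2013 CPM in WT dark, 13716 and 13749 in WT red, 17543 and 17576 in phyB and 5766 and 5771 in phyAB. That of the photosystem genes was 1622 and 1647 CPM in WT dark, 9183 and 9138 in WT red, 10828 and 10852 in phyB and 3892 and 3883 in phyAB, and that of the carbon fixation genes 2249 and 2298 CPM in WT dark, 8075 and 8025 in WT red, 9884 and 9874 in phyB and 3849.7 and 3858 in phyAB. The groups did not overlap in any of these sums.

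LHCB1.4, an antenna protein of photosystem II, lay at 4.86 and 5.8 CPM in WT dark, 395 and 400.1 in WT red, 667 and 662 in phyB and 93.2 and 98 in phyAB (log2 change −2.06 ± 0.03, adjusted p = 9.84e-100). LHCB1.1 lay at 4.46 and 4.73 CPM in WT dark, 473 and 478 in WT red, 599 and 596 in phyB and 138 and 142 in phyAB (log2 change −1.76 ± 0.03, adjusted p = 4.99e-97). The LHCB1 genes are near-identical copies, and their reads may be shared between them. LHCA1, of the photosystem I antenna, lay at 35 and 34.4 CPM in WT dark, 1011 and 1012 in WT red, 1296 and 1322 in phyB and 251 and 249 in phyAB (log2 change −2.02 ± 0.02, adjusted p = 3.36e-73). The antenna gene that was not called was LHCB4.3, named after its value was seen, with a log2 change of −0.16. PSBO2, of the oxygen-evolving complex, lay at 24.1 and 25.8 CPM in WT dark, 224 and 235 in WT red and 75.2 and 75.4 in phyAB (log2 change −1.6 ± 0.04, adjusted p = 9.01e-78). PSAN, a photosystem I subunit, lay at 38 and 41.8 CPM in WT dark, 280.3 and 289 in WT red and 97.5 and 93.1 in phyAB (log2 change −1.57 ± 0.03, adjusted p = 1.2e-82). CP12-2, a regulator of the Calvin cycle, changed most in these lists, at 3.81 and 3.71 CPM in WT dark, 43.6 and 43.5 in WT red, 50.6 and 54.2 in phyB and 8.72 and 7.96 in phyAB (log2 change −2.38 ± 0.09, adjusted p = 2.44e-53). HPR, a photorespiratory reductase, lay at 40.6 and 50.5 CPM in WT dark, 223 and 229.8 in WT red and 59.7 and 59.9 in phyAB (log2 change −1.92 ± 0.04, adjusted p = 5.56e-42), nearer to WT dark than to WT red. RCA, the Rubisco activase, lay at 109 and 115 CPM in WT dark, 1227 and 1220.0 in WT red and 354 and 363 in phyAB (log2 change −1.77 ± 0.01, adjusted p = 2.75e-138), with phyAB again between both groups.

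The window upstream of LHCB1.4, the antenna gene with the largest change, is shown with its matches in capitals (chr2:14524307-14524606, plus strand, TAIR10.1). They are GCCAC (SORLIP1, here on the opposite strand, at −107) and AAAAATCT (the CCA1 binding site, at −18).
LHCB1.4: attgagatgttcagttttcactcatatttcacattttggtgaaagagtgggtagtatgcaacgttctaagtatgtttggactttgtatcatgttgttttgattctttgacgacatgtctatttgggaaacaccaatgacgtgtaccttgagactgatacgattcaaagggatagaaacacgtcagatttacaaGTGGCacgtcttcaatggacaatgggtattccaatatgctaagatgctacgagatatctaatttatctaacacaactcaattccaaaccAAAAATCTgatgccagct

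GCCAC occurred before 10 of 21 antenna genes (47.6%), 12 of 30 photosystem genes (40.0%) and 17.6% of all promoters. It stood before 23.8% of the genes called at least 2-fold lower and 21.5% of those at least 2-fold higher, and before 18 of 28 clock genes (64.3%). CACGTG, the G-box, occurred before 5 of 21 antenna genes, 6 of 30 photosystem genes and 7.2% of all promoters. GATAAG, the I-box, occurred before 4 of 21, 8 of 30 and 14.5%.

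Chlorophyll and heme synthesis held both falls and large rises. Of 29 genes 20 were lower than in WT red and 5 higher. HEMA1, the first committed enzyme of the pathway, lay at 68.6 and 73.4 CPM in WT dark, 227 and 230.3 in WT red and 120.1 and 117 in phyAB (log2 change −0.94 ± 0.03, adjusted p = 2.8e-57). GUN4, an activator of magnesium chelatase, lay at 10.7 and 10.6 CPM in WT dark, 116 and 119 in WT red and 50.7 and 53.9 in phyAB (log2 change −1.17 ± 0.04, adjusted p = 2.32e-51). PORA, the protochlorophyllide oxidoreductase isoform typical of etiolated tissue, lay at 135 and 141 CPM in WT dark, 18.2 and 21.2 in WT red, 16.8 and 17.2 in phyB and 381 and 379.8 in phyAB (log2 change 4.28 ± 0.04, adjusted p = 1.2e-119). The phyAB libraries were above those of the other 3 groups. PORB, an isoform also used in light, lay at 193 and 189.6 CPM in WT dark, 133 and 136 in WT red, 186 and 182 in phyB and 438 and 435 in phyAB (log2 change 1.7 ± 0.03, adjusted p = 1.24e-93), with phyAB again highest. PORC, the light-induced isoform, lay at 7.06 and 7.2 CPM in WT dark, 32.4 and 31.5 in WT red, 31.6 and 31.1 in phyB and 28.3 and 28.1 in phyAB (log2 change −0.18 ± 0.07, adjusted p = 0.0372). The PORC call did not survive leaving out 1 library, whichever of the 4 it was (adjusted p from 0.0707 to 0.193).

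Of 17 genes of plastid isoprenoid and carotenoid synthesis 16 were lower and 0 higher. NPQ1, the violaxanthin de-epoxidase, lay at 29 and 29.6 CPM in WT red and 11.3 and 13 in phyAB (log2 change −1.28 ± 0.09, adjusted p = 1.02e-26). All 6 sigma factor genes, which guide the plastid-encoded RNA polymerase, were lower. SIG5 changed most, at 2.85 and 3.65 CPM in WT dark, 50.7 and 48.4 in WT red, 80.5 and 87.4 in phyB and 12.6 and 12.8 in phyAB (log2 change −1.97 ± 0.08, adjusted p = 8.66e-51). Of 84 tested plastid-encoded genes 21 were higher and 11 lower, against 22.3% and 22.7% of all genes, with a median log2 change of 0.008. The libraries were made from poly(A) RNA, which represents plastid transcripts poorly. Proteins related to the antennae did not move together. ELIP2, an early light-induced protein, was lower, at 3.11 and 2.85 CPM in WT dark, 109 and 109 in WT red, 277 and 269 in phyB and 48.3 and 48.5 in phyAB (log2 change −1.17 ± 0.04, adjusted p = 2.53e-52). ELIP1 was higher than in WT red, at 1.65 and 1.61 CPM in WT dark, 68.1 and 68.3 in WT red, 158 and 158 in phyB and 78.5 and 82.7 in phyAB (log2 change 0.24 ± 0.05, adjusted p = 3.08e-06). So was LIL3:2, an antenna-like protein, at 81.3 and 75.5 CPM in WT red and 210.4 and 209 in phyAB (log2 change 1.41 ± 0.04, adjusted p = 1.59e-71).

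**Figure D3:**
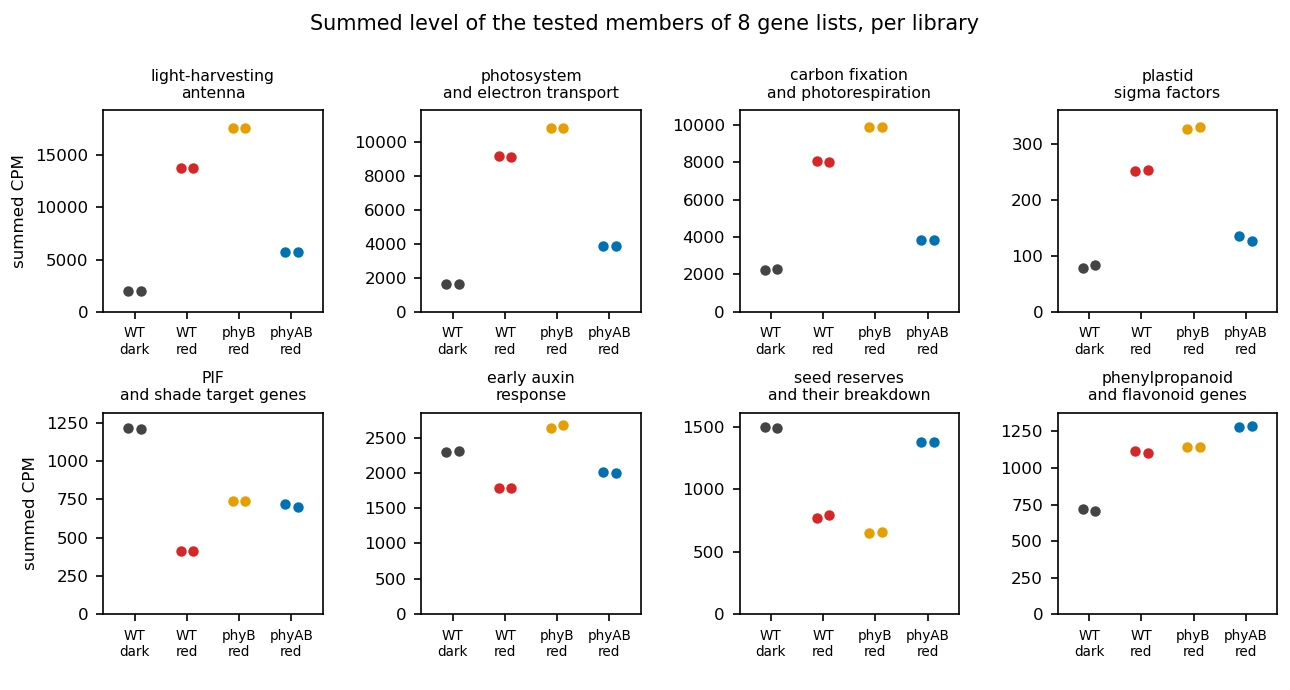
Summed CPM (y axis, from 0) of the tested members of 8 gene lists in each of the 8 libraries (points). For the antenna, photosystem and carbon fixation lists phyAB lies between WT dark and WT red. The seed reserve sum in phyAB lies between WT red and WT dark, nearer to WT dark. Of the 14 tested seed reserve genes 12 were called higher than in WT dark and 1 lower, and 5 passed the filter only through phyAB. For the phenylpropanoid and flavonoid list phyAB is the highest group, although CHS and F3H, members of that list, were higher in phyB.

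The phenylpropanoid and flavonoid list went the other way in part. Of 20 tested genes 10 were higher (6 with DESeq2), 2 lower and 8 not called. Against WT dark 18 were higher and 0 lower. CHS, chalcone synthase and the entry to the pathway, lay at 3.06 and 2.58 CPM in WT dark, 109 and 112 in WT red, 122 and 127 in phyB and 112 and 111 in phyAB, with overlapping phyAB and WT red libraries (log2 change 0.01 ± 0.04, adjusted p = 0.851). PAP1, a MYB activator of anthocyanin genes, lay at 0.601 and 1.24 CPM in WT dark, 3.94 and 3.82 in WT red, 1.81 and 0.54 in phyB and 7.32 and 6.25 in phyAB (log2 change 0.81 ± 0.20, adjusted p = 0.000382). DESeq2 did not call it (adjusted p = 0.336). F3H, flavanone 3-hydroxylase, was lower at 20.9 and 19.2 CPM in WT red and 16.7 and 16.4 in phyAB (log2 change −0.28 ± 0.10, adjusted p = 0.0103). This call was lost without WT red replicate 1 (adjusted p = 0.169) or phyAB replicate 2 (adjusted p = 0.0519).

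Of 28 circadian clock genes 20 were lower and 6 higher, with a median log2 change of −0.50. PRR9, a daytime pseudo-response regulator, lay at 5.96 and 4.73 CPM in WT dark, 13.5 and 14.6 in WT red, 13.4 and 14 in phyB and 5.56 and 6.78 in phyAB (log2 change −1.2 ± 0.13, adjusted p = 2.08e-14). ELF4, of the evening complex, lay at 6.31 and 7.46 CPM in WT dark, 22.2 and 22.4 in WT red and 10.1 and 10.4 in phyAB (log2 change −1.12 ± 0.10, adjusted p = 1.1e-18). LHY, a morning MYB factor, was higher at 79 and 73.8 CPM in WT dark, 48.2 and 49 in WT red and 84.9 and 87.3 in phyAB (log2 change 0.82 ± 0.05, adjusted p = 1.1e-32), with phyAB above WT dark. Its partner CCA1 differed little, at 63 and 63.8 CPM in WT red and 67.3 and 72.1 in phyAB (log2 change 0.13 ± 0.05, adjusted p = 0.0197). The call was lost without WT red replicate 1 (adjusted p = 0.125), WT red replicate 2 (0.0513) or phyAB replicate 2 (0.263).

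Among hormone genes, ethylene genes were mostly higher: 7 of 12 were higher, 5 at least 2-fold, and 1 lower. ACS5, which makes the ethylene precursor, lay at 27 and 27.6 CPM in WT dark, 5.54 and 5.14 in WT red, 6.55 and 7.46 in phyB and 19.7 and 21.9 in phyAB (log2 change 1.95 ± 0.12, adjusted p = 8.79e-32). HLS1, needed for the apical hook, lay at 12.3 and 13.2 CPM in WT dark, 2.8 and 3.7 in WT red, 4.55 and 4.81 in phyB and 11.2 and 11.4 in phyAB (log2 change 1.81 ± 0.16, adjusted p = 5.63e-20). Gibberellin genes split, with 5 higher and 5 lower of 13. GA2OX1, which inactivates gibberellins, lay at 0.852 and 0.967 CPM in WT dark, 12 and 12.6 in WT red and 4.2 and 4.07 in phyAB (log2 change −1.57 ± 0.14, adjusted p = 1.26e-18). GA3OX1, which makes the active forms, lay at 13.2 and 12.3 CPM in WT dark, 11.2 and 11.1 in WT red and 20.9 and 23.6 in phyAB (log2 change 0.99 ± 0.10, adjusted p = 4.65e-16). Of 11 brassinosteroid genes 3 were higher and 5 lower, none by 2-fold. The lower count was 3 without WT red replicate 1 or phyAB replicate 1, or with DESeq2.

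Of 12 genes of other photoreceptors and phototropism 8 were lower and 2 higher. The blue-light receptor genes PHOT1 and PHOT2 went opposite ways. PHOT1 lay at 335 and 351 CPM in WT dark, 219 and 211 in WT red and 308 and 309 in phyAB (log2 change 0.52 ± 0.03, adjusted p = 3.89e-37). PHOT2 lay at 45.4 and 48.7 CPM in WT dark, 157 and 159 in WT red and 85.8 and 84.7 in phyAB (log2 change −0.89 ± 0.04, adjusted p = 9.59e-48). RPT2, a phototropism gene, lay at 55 and 56.6 CPM in WT dark, 451 and 448 in WT red and 155 and 153 in phyAB (log2 change −1.55 ± 0.03, adjusted p = 9.97e-91). Of 8 tested nitrogen assimilation genes 5 were lower and 3 higher. GLU1, the ferredoxin-dependent glutamate synthase of chloroplasts, lay at 94.7 and 88.6 CPM in WT dark, 327 and 332 in WT red and 141 and 147 in phyAB (log2 change −1.2 ± 0.03, adjusted p = 1.08e-73). NRT1.1, a nitrate transporter and sensor, lay at 632 and 620.2 CPM in WT dark, 434 and 433 in WT red and 688 and 691 in phyAB (log2 change 0.67 ± 0.02, adjusted p = 1.72e-75).

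Stress genes moved in both directions, as did all tested genes (22.3% higher and 22.7% lower). Of 14 tested heat shock and folding genes 2 were higher and 7 lower, and the latter count was 3 without WT red replicate 1 or with DESeq2. Of 16 touch, cold and rapid stress genes 8 were higher and 4 lower. For 10 tested jasmonate genes the counts were 1 and 4, and for 6 ribosome biogenesis genes 0 and 2. TCH3, a calmodulin-like touch gene, lay at 52.4 and 52.4 CPM in WT dark, 42.3 and 44.2 in WT red, 64.9 and 66.5 in phyB and 114 and 112 in phyAB (log2 change 1.39 ± 0.05, adjusted p = 6.06e-57). VSP2, a jasmonate-induced vegetative storage protein gene, lay at 16.6 and 14 CPM in WT dark, 42.3 and 42.1 in WT red, 12.5 and 13.7 in phyB and 15.9 and 17.4 in phyAB (log2 change −1.34 ± 0.08, adjusted p = 1.47e-32). NUC1, a nucleolin gene, lay at 199.9 and 182 CPM in WT red and 174 and 175 in phyAB (log2 change −0.13 ± 0.03, adjusted p = 0.000143). This call was lost without WT red replicate 1 (adjusted p = 0.196).

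**Figure D4:**
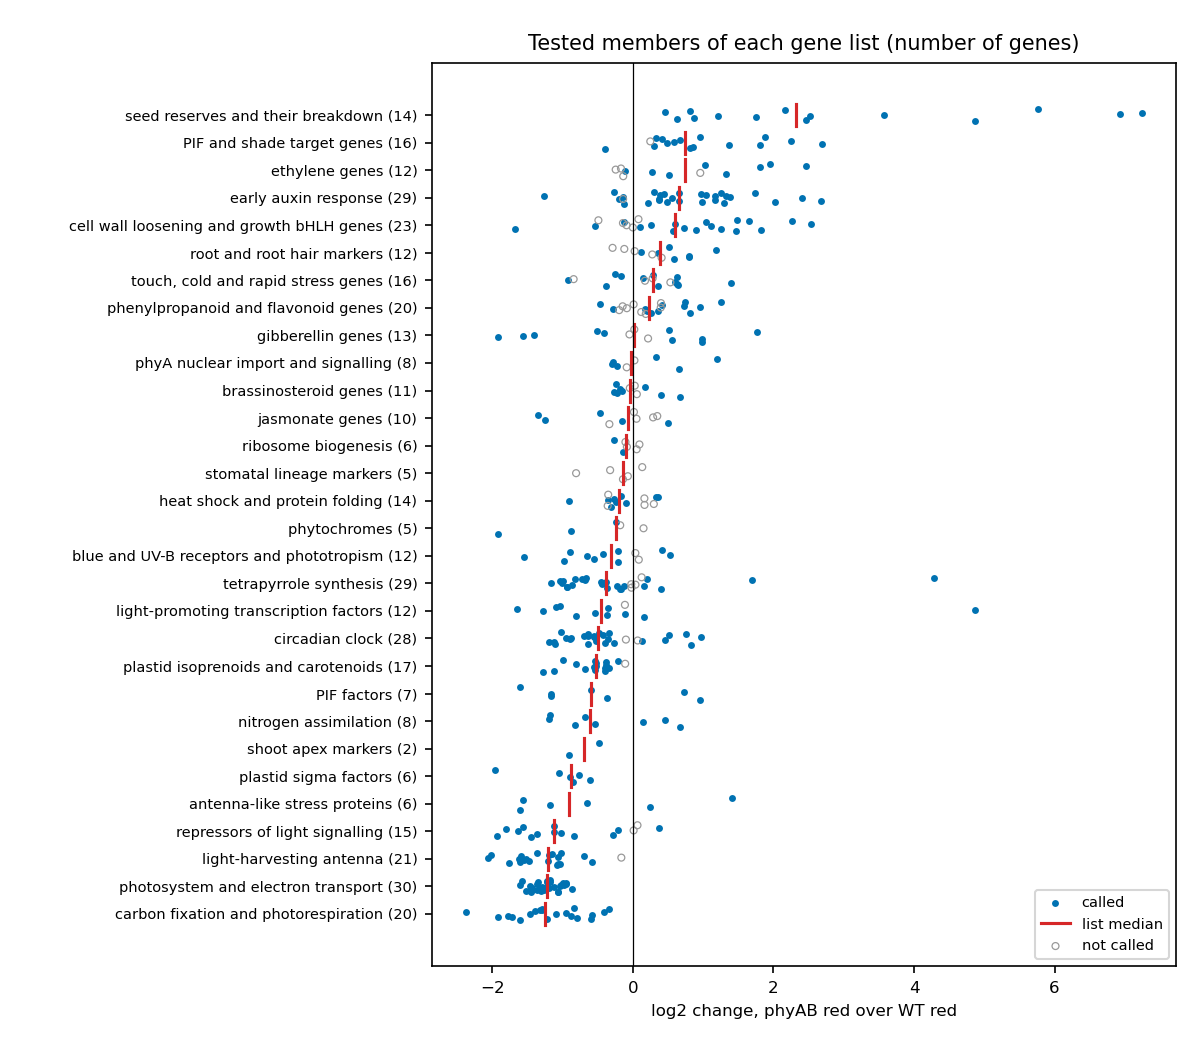
Log2 change of phyAB over WT red (x axis) for every tested member of the 30 gene lists, which are ordered by their median (red line), with called genes filled and others open. The lists run from carbon fixation, with a median of −1.25, to seed reserves, with 2.32, of whose members 5 passed the filter only through phyAB, and the number of tested genes stands in parentheses.

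Seed reserve genes were higher in phyAB. The list held 18 genes of storage proteins, oil bodies, late embryogenesis and reserve breakdown, of which 14 passed the filter on low counts. EM1, CRU2, CRU3, OLE1 and SESA2 passed only through the phyAB libraries, with at most 9 reads in any other library, so they had to differ. The other 9 were all called higher. CRU3, a 12S storage globulin, lay at 0.20 and 0.107 CPM in WT dark, 0.0518 and 0.314 in WT red, 0 and 0.315 in phyB and 27.3 and 26.3 in phyAB (log2 change 7.25 ± 0.26, adjusted p = 3.86e-55). Over both libraries of a group this was 1051 reads in phyAB and 6 in WT red, a ratio of 165 with a 95% counting interval of 75.5 to 450.5. Such intervals cover counting error only. CRU1, also a 12S globulin, lay at 0.651 and 0.913 CPM in WT dark, 0.673 and 0.0627 in WT red, 0.187 and 0.45 in phyB and 21.5 and 22.2 in phyAB (log2 change 5.76 ± 0.24, adjusted p = 1.62e-48). PER1, a seed peroxiredoxin, lay at 1.4 and 1.07 CPM in WT dark, 1.4 and 1.63 in WT red, 2.0 and 1.57 in phyB and 8.36 and 8.31 in phyAB (log2 change 2.46 ± 0.22, adjusted p = 7.91e-20).

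ICL, the isocitrate lyase that turns stored oil toward sugar, was named after its values were seen and lay at 277 and 269 CPM in WT dark, 116 and 116 in WT red, 91.2 and 93.3 in phyB and 388 and 392 in phyAB (log2 change 1.75 ± 0.03, adjusted p = 8.46e-93). CRU1 and CRU3 were below 1 CPM in every library of the other groups, WT dark included, whereas ICL in phyAB exceeded WT dark by a log2 change of 0.51. The window upstream of CRU3 (chr4:14087256-14087555, plus strand, TAIR10.1) is shown for the motif CATGCA, the RY element of seed genes (at −69), a motif added after the values were seen. Other capitals mark GGTTAA (the GT1 box, at −264), TGTCTC (the auxin response element, here on the opposite strand, at −124) and GCCAC (SORLIP1, on the opposite strand, at −50).
CRU3: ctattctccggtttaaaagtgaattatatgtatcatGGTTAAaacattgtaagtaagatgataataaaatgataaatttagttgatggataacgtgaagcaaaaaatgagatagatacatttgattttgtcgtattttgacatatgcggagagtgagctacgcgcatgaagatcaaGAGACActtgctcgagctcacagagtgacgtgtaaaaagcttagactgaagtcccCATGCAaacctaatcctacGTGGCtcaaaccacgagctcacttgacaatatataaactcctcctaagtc

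CATGCA occurred before 10 of 18 genes of the seed list (55.6%) and 10.3% of all promoters. It stood before 18.4% of the genes called at least 2-fold higher and 12.3% of those at least 2-fold lower. CACGTG stood before 8 of 18 genes of the list (44.4%) and 7.2% of all promoters. The circadian clock list, mostly lower in phyAB, held it before 9 of 28 genes (32.1%). These shares were not tested.

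Some markers of the root and the shoot apex also differed, and their part in the results above was not tested. Of 12 root and root hair markers 7 were higher in phyAB (4 with DESeq2) and 0 lower. Their summed level was 403 and 398 CPM in WT dark, 386 and 386 in WT red, 418 and 405 in phyB and 467 and 471 in phyAB. PRP3, a root hair cell wall gene, lay at 21.5 and 21.9 CPM in WT dark, 12.8 and 15.4 in WT red, 16.1 and 15.5 in phyB and 30.8 and 33.3 in phyAB (log2 change 1.19 ± 0.09, adjusted p = 2.71e-25). Both tested shoot apex markers were lower, STM at 9.38 and 9.4 CPM in WT red and 4.02 and 6.19 in phyAB (log2 change −0.91 ± 0.16, adjusted p = 2.43e-07), and KNAT1 at 116 and 117 CPM in WT red and 82.7 and 83.5 in phyAB (log2 change −0.48 ± 0.04, adjusted p = 5.44e-22), while WUS and CLV3 did not pass the filter. Of 5 tested stomatal lineage markers edgeR called 0 higher and 0 lower, DESeq2 called 0, and 1, FAMA, had an unadjusted p below 0.05. Their summed level was 4.96 and 5.69 CPM in WT dark, 13.9 and 14.5 in WT red, 17.1 and 17.1 in phyB and 12.7 and 12.3 in phyAB.

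Over all genes, the 12 largest rises and the 12 largest falls with at least 5 CPM in the higher group, and with a call kept whichever library was left out, held further genes outside the lists. QRT1, a pectin methylesterase known from the separation of pollen grains, lay at 0.601 and 0.967 CPM in WT dark, 0.777 and 0.627 in WT red, 0.437 and 0.764 in phyB and 40.4 and 41.5 in phyAB (log2 change 5.84 ± 0.17, adjusted p = 7.66e-65), with 1600 reads over both phyAB libraries and 25 over both WT red libraries. SMR7, an inhibitor of cyclin-dependent kinases, lay at 1.85 and 1.99 CPM in WT dark, 1.4 and 2.13 in WT red, 0.624 and 0.989 in phyB and 33.8 and 29.99 in phyAB (log2 change 4.2 ± 0.15, adjusted p = 1.13e-53). Both genes were below 3 CPM in every library outside phyAB. For AT5G53660 and CYP96A5 no difference from WT dark passed the test (log2 change 0.10, adjusted p = 0.389, and −0.04, adjusted p = 0.832). AT5G53660, the growth-regulating factor gene GRF7, lay at 23.1 and 20.1 CPM in WT dark, 0.932 and 0.564 in WT red, 0.748 and 0.585 in phyB and 23 and 23.5 in phyAB (log2 change 4.91 ± 0.18, adjusted p = 9.58e-53). CYP96A5, a cytochrome P450, lay at 14.8 and 13.9 CPM in WT dark, 0.725 and 0.69 in WT red, 2.5 and 1.8 in phyB and 15.4 and 12.3 in phyAB (log2 change 4.29 ± 0.21, adjusted p = 1.07e-39). GH9B12, a glycosyl hydrolase gene, lay at 3.86 and 4.57 CPM in WT dark, 0.259 and 0.188 in WT red, 0.374 and 0.989 in phyB and 6.55 and 7.01 in phyAB (log2 change 4.86 ± 0.34, adjusted p = 9.62e-27), which was above WT dark as well (log2 change 0.69 ± 0.19, adjusted p = 0.00103). The loci AT1G20790, AT1G80130 and AT5G39150 had log2 changes of 4.12, 4.02 and 4.01 against WT red, and of −0.23, 3.36 and 0.99 against WT dark. Of these, AT1G80130 and AT5G39150 were called higher than in WT dark.

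The largest falls were smaller than the largest rises. XTH6, a cell wall enzyme of the XTH family, changed most, at 0.651 and 0.483 CPM in WT dark, 10.7 and 10.4 in WT red, 14.6 and 14.1 in phyB and 1.49 and 0.943 in phyAB (log2 change −3.07 ± 0.20, adjusted p = 9.6e-30). The cineole synthase genes AT3G25820 and AT3G25830 are near-identical neighbours whose reads may be shared. AT3G25820 lay at 45.5 and 44 CPM in WT dark, 184 and 179 in WT red, 71 and 75.4 in phyB and 38 and 37.5 in phyAB (log2 change −2.26 ± 0.04, adjusted p = 2.61e-85), with phyB also below WT red. MSRB6, a methionine sulfoxide reductase, lay at 1.9 and 1.72 CPM in WT dark, 77.5 and 75.5 in WT red, 146 and 155 in phyB and 18.9 and 14.7 in phyAB (log2 change −2.17 ± 0.06, adjusted p = 8.14e-64). FADA, the FAD4 desaturase of plastid lipids, lay at 1.7 and 1.13 CPM in WT dark, 26.1 and 28 in WT red and 6.6 and 6.95 in phyAB (log2 change −2.0 ± 0.11, adjusted p = 1.3e-37). UBC31, a ubiquitin-conjugating enzyme gene, lay at 7.61 and 8.0 CPM in WT dark, 6.06 and 5.64 in WT red, 5.8 and 5.08 in phyB and 1.49 and 1.18 in phyAB (log2 change −2.11 ± 0.22, adjusted p = 1.85e-15) and was also lower in phyAB than in WT dark (log2 change −2.52 ± 0.21, adjusted p = 8.21e-22). AT1G26761, AT3G56290 and AT4G18740 had log2 changes of −2.08, −2.06 and −1.97, and CP12-2, LHCB1.4 and LHCA1 were the others.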

How the data were processed

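Gene read counts were used as deposited; per the file headers they are reads per transcript model, beside RPKM values that the authors computed, which were used only to check model lengths. The build was TAIR10, per the submitters' processing notes; no source used here names the aligner, the counter, the annotation or the strand setting. RNA was selected with oligo(dT), per the labels' protocols. Counts of all 8 libraries (15926547 to 22116924 reads) were fitted with edgeR 4.0.16 in R 4.3.3 (filterByExpr with a minimum count of 10, TMM scaling, 1 coefficient per group, robust quasi-likelihood test, Benjamini-Hochberg adjustment), which was also tested on simulated data. DESeq2 1.42.0 was an alternative. Of 27416 models 26719 were named by the RefSeq table of TAIR10.1, from which promoter windows of 300 bases were read by locus. Named genes are fixed receptor and marker genes, the 3 largest called changes each way per list with at least 5 CPM in the higher group, and the 12 largest each way over all genes. SPA1, ICL, LHCB4.3, CP12-1 and the genes of the additional observations were named after their values were seen. The comparison and lists were chosen with earlier results of these data known.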

Additional observations from a re-analysis of the deposited data

How the results depend on the processing

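The counts of called genes were smaller where small changes were discounted. A test against a 1.5-fold change called 1640 genes against WT red (817 higher and 823 lower), 2392 against phyB and 1732 against WT dark. An assumed coefficient of variation of 0.1 on summed libraries gave 2740 (1433 and 1307), 3956 and 2902. Of 170 genes followed, 59 lost their call against WT red in the former and 49 in the latter. The other alternatives kept these counts within 1.5 times: DESeq2 called 6974, 8118 and 7560, and leaving out 1 library gave 7682 to 8154, 8897 to 9392 and 8341 to 8815. Upper-quartile scaling moved the share of calls that were higher from 49.6% to 56.2% and the median log2 change of all genes to 0.038. Of the genes followed, CHS alone turned direction, with log2 changes from −0.0136 to 0.0311 when 1 library was left out, and it was not called in any of these fits. The cause was not tested. The replicate block called 9342 genes against WT red, 10413 against phyB and 9990 against WT dark and changed no call among the genes followed. The shared numbers gave no sign of a pairing, as the deviations of same-numbered libraries correlated between −0.019 and 0.009 over 15272 genes. Fewer than 3 reads in a library, or 0.136 to 0.188 CPM, cannot be told from 0.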

Other observations

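Genes of the response to DNA damage were mostly higher in phyAB than in the 3 other groups. The list was drawn up after SMR7 had been seen among the largest changes, so its counts are a description of these libraries. Of 35 tested genes 22 were higher than in WT red, 16 at least 2-fold, and 3 lower, with a median log2 change of 0.92, against 22.3% and 22.7% of all genes. Against phyB 22 were higher and 3 lower, and against WT dark 23 and 5. Between phyB and WT red 2 were higher and 3 lower, where 13.1% and 14.1% of all genes were. The summed level was 450.4 and 453 CPM in WT dark, 439.8 and 447 in WT red, 436 and 438 in phyB and 1037 and 1037 in phyAB, so that phyAB stood apart from groups that lay close together. Much of the rise in this sum came from TSO2, given below, and TK1A. TK1A lay at 21.55 and 25.14 CPM in WT red and 113.6 and 117.7 in phyAB. Against WT red 10 of the 35 genes were not called.

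TSO2, a ribonucleotide reductase subunit that supplies deoxynucleotides, lay at 32.8 and 34.5 CPM in WT dark, 33.3 and 36.2 in WT red, 30.8 and 33.5 in phyB and 271 and 277 in phyAB (log2 change 2.98 ± 0.04, adjusted p = 1.51e-101). PARP2, a poly(ADP-ribose) polymerase of DNA repair, lay at 3.21 and 3.54 CPM in WT dark, 5.49 and 4.2 in WT red, 4.8 and 5.04 in phyB and 45 and 43.9 in phyAB (log2 change 3.18 ± 0.11, adjusted p = 6.89e-57). BRCA1, a repair gene, lay at 3.88 and 3.7 CPM in WT red and 29.7 and 29.3 in phyAB (log2 change 2.96 ± 0.13, adjusted p = 1.08e-45). In all 3 the phyAB libraries exceeded every other library. CYCB1;1, a mitotic cyclin gene, lay at 2.18 and 2.19 CPM in WT red and 6.87 and 7.84 in phyAB (log2 change 1.74 ± 0.20, adjusted p = 1.75e-13). KU70, of end joining, was lower at 26.3 and 26.8 CPM in WT red and 12.7 and 10.9 in phyAB (log2 change −1.15 ± 0.09, adjusted p = 3.54e-23). The regulator SOG1 (log2 change −0.08, adjusted p = 0.481), the kinase ATM (0.07, adjusted p = 0.416) and the ligase LIG4 (0.05, adjusted p = 0.553) were not called.

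The 300 bases upstream of SMR7 (chr3:10231568-10231867, minus strand, TAIR10.1) are shown because they hold, in capitals, a palindromic SOG1 binding motif, searched after the values were seen, at −43. They also hold GGTTAA (the GT1 box, on the opposite strand) at −208.
SMR7: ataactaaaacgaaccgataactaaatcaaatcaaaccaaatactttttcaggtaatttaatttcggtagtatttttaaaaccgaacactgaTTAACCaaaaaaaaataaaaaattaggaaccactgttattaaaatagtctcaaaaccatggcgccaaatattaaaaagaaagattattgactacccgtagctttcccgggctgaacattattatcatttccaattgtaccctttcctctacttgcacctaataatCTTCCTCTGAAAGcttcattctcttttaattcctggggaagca

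The SOG1 motif occurred before 9 of 36 genes of the list (25.0%) and 11.4% of all promoters. It stood before 11.7% of the genes called at least 2-fold higher and 11.8% of those at least 2-fold lower. The circadian clock list, mostly lower in phyAB, held it before 8 of 28 genes (28.6%). The shares were not tested.

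Genes known from phosphate starvation, a list also drawn up after the values were seen, were mostly higher. Of 18 tested genes 12 were higher than in WT red and 2 lower (median log2 change 0.64), against 22.3% and 22.7% of all genes. The counts were 14 and 1 against phyB, and 12 and 1 against WT dark. The 4 genes not called against WT red were IPS1, PHO1, MGD2 and NPC4, and SPX3 did not pass the filter. IPS1 lay at 1.243 and 1.693 CPM in WT red and 1.355 and 1.945 in phyAB (log2 change 0.16, adjusted p = 0.741). SPX1, a phosphate-sensing regulator, lay at 21.5 and 21.8 CPM in WT dark, 19 and 19.9 in WT red, 16.8 and 16.1 in phyB and 66.1 and 66.2 in phyAB (log2 change 1.77 ± 0.07, adjusted p = 3.26e-51). AT4, a noncoding RNA of phosphate allocation, lay at 80.00 and 87.7 CPM in WT dark, 79.2 and 78.8 in WT red, 72.8 and 70.2 in phyB and 174 and 184 in phyAB (log2 change 1.18 ± 0.04, adjusted p = 5.02e-59). Both were higher in phyAB than in every other library. PAP17, an acid phosphatase, was lower at 242 and 243 CPM in WT red and 189 and 184 in phyAB (log2 change −0.38 ± 0.03, adjusted p = 6.45e-24), as was the transporter gene PHT1;1 at 97.1 and 96.4 CPM in WT red and 84.1 and 88.6 in phyAB (log2 change −0.17 ± 0.04, adjusted p = 0.000322).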
